A study of Rattus norvegicus with 10 samples.

Results

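The Kruppel-like factors are transcription factors that carry zinc fingers at their C-terminal end. The members described here are the 10 genes Klf2, Klf4, Klf5, Klf6, Klf7, Klf10, Klf11, Klf13, Klf15 and Klf16, out of 18166 distinct gene symbols measured on the array. They were found by symbol among the probe sets that the platform annotation gives a single gene, and each of the 10 had 1 such probe set. In all, 16 Klf genes were measured. Each value was the log2 signal of 1 probe set, so levels are compared between groups and never between genes.

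Adult male Sprague-Dawley rats were given NRG1 (neuregulin-1, a growth factor that signals through ErbB receptors) with permanent occlusion of the left middle cerebral artery (MCAO+NRG1, n = 3), the same occlusion with vehicle, albumin in buffered saline (MCAO, n = 3), or sham surgery (n = 4). The occlusion was made with a suture passed up the carotid artery, and sham animals had the same surgery without the filament in the internal carotid artery. The treatment protocol places NRG1 just before the occlusion, whereas the short sample descriptions place it after. RNA of the left cortex was collected 3 hours after surgery and hybridized to 1 Affymetrix Rat Gene 2.0 ST array per animal, as biological replicates.

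Kruppel-like factors bind GC boxes and CACCC boxes in promoters, sites that they share with the related Sp proteins. Some members, such as KLF2, KLF4 and KLF5, are best known in vessel walls, KLF6 and KLF7 in axon growth, KLF10 and KLF11 as repressors induced by TGF-beta, and KLF15 in the response to glucocorticoids. Several are fast-response genes whose transcripts change soon after a stimulus.

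The arrays stood at unequal levels. The median of the 18511 single-symbol probe sets was 5.79 to 5.81 log2 in MCAO+NRG1, 5.80, 5.82 and 6.12 in MCAO replicates 1, 2 and 3, and 6.05 to 6.11 in sham, so MCAO replicate 3 stood with the sham arrays. Setting every array to a common median (median centring) adds 0.27 log2 to each difference between MCAO+NRG1 and sham, 0.11 to that between MCAO+NRG1 and MCAO, and 0.16 to that between MCAO and sham. Neuron markers averaged 11.2 to 11.6 log2 and astrocyte markers 10.6 to 11.1 over all 10 arrays, and no gene of either list passed the test in any comparison. Signal near background was taken as 4.64 log2, the level that 95% of 1359 olfactory and vomeronasal receptor probe sets lay under. The means of all 10 Kruppel-like factor genes over the arrays were 1.20 to 4.99 log2 above it.

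Between MCAO and sham, Klf15 and Klf16 fell and no member rose: 2 of the 10 genes passed, where 6.7% of all probe sets did (1.1% higher, 5.61% lower). In MCAO+NRG1 compared with sham, Klf15 and Klf16 fell again and Klf6 rose, so that 3 of 10 passed against 17.3% of all probe sets (1.51% higher, 15.8% lower). Between MCAO+NRG1 and MCAO none of the 10 passed, against 0.0054% of all probe sets. After median centring, Klf6 and Klf7 passed in MCAO+NRG1 against sham, both higher, where 5.38% of all probe sets did (3.82% higher, 1.56% lower), and no member passed in MCAO against sham (3.26% of all; 2.2% higher, 1.06% lower). A gene is said to rise or fall, or is called, where limma gave a Benjamini-Hochberg adjusted p under 0.05 over all single-symbol probe sets. The comparisons of the occluded groups with sham share the 4 sham arrays, so they do not check each other.

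**Figure D1:**
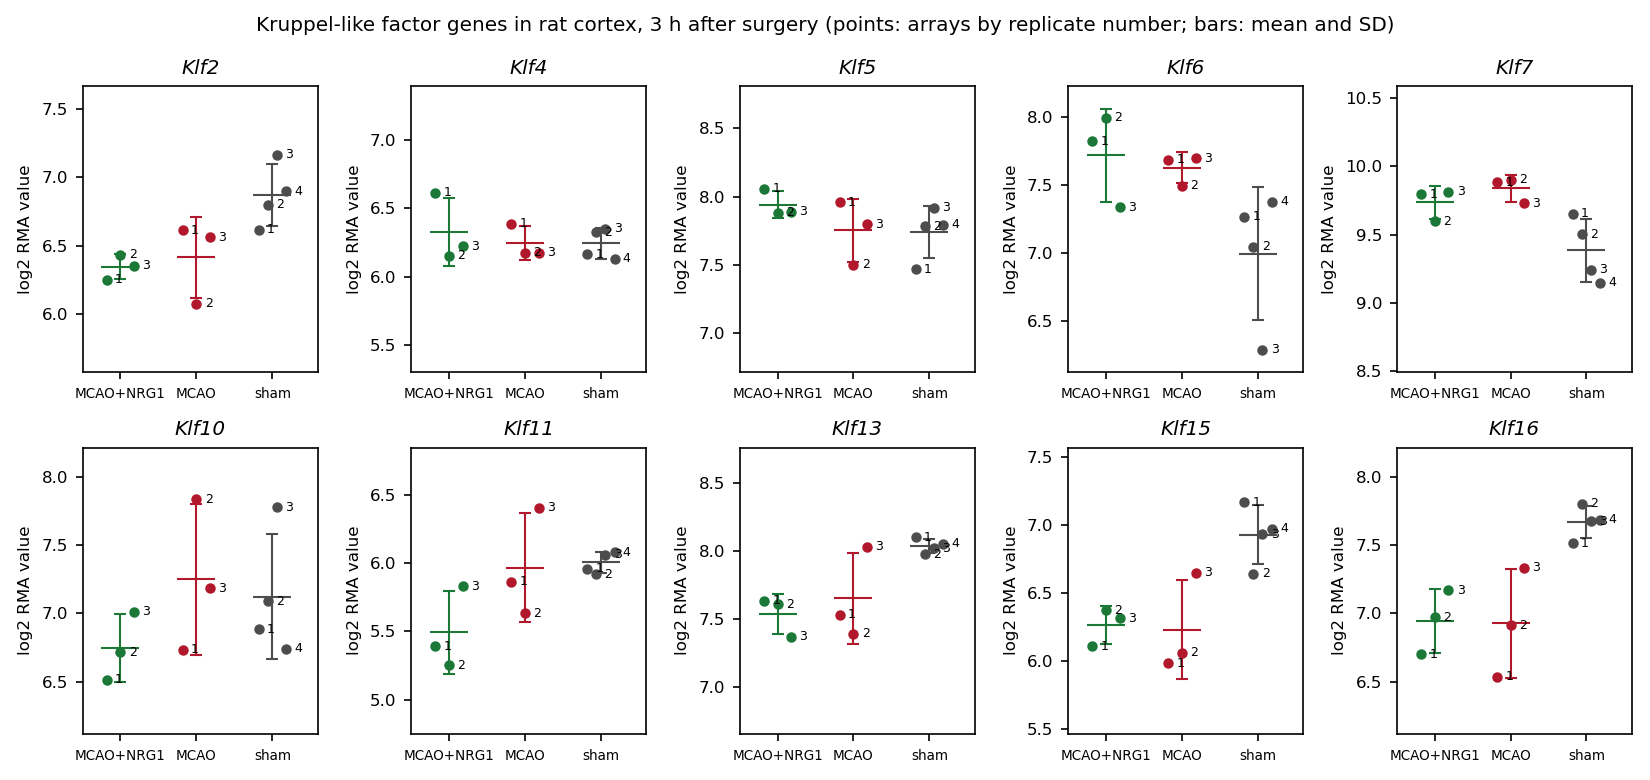
Log2 signal of each of the 10 Kruppel-like factor genes (vertical axis of each panel) in MCAO+NRG1, MCAO and sham cortex, 1 point per array with its replicate number, and the group mean with SD as bars. In the Klf16 panel all 6 occluded arrays (6.53 to 7.33 log2) sit under the 4 sham arrays (7.51 to 7.80), and in the Klf6 panel the 3 MCAO arrays (7.50 to 7.70) sit above sham (6.29 to 7.38).

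Klf16, which encodes a repressor that competes with Sp1 for GC boxes and is expressed in brain, was lower in both occluded groups. Its log2 signal was 6.70, 6.97 and 7.17 in MCAO+NRG1, 6.53, 6.91 and 7.33 in MCAO, and 7.51, 7.80, 7.68 and 7.69 in sham. Every occluded array lay under every sham array, and the MCAO+NRG1 arrays lay within the wider range of MCAO. The mean was 6.95 ± 0.24 in MCAO+NRG1, 6.93 ± 0.40 in MCAO and 7.67 ± 0.12 in sham (SD, n = 3, 3 and 4). The fall was −0.74 ± 0.19 log2 in MCAO against sham (fold change ± SE, a ratio of 0.598, adjusted p = 0.033 in limma) and −0.72 ± 0.19 in MCAO+NRG1 against sham (adjusted p = 0.0205 in limma). The difference of MCAO+NRG1 from MCAO was 0.020 log2, with a 95% interval of −0.41 to 0.45.

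Klf15, a glucocorticoid-induced regulator of amino acid and glucose metabolism, followed the same course. It measured 6.11, 6.37 and 6.32 log2 in MCAO+NRG1, 5.99, 6.06 and 6.65 in MCAO, and 7.16, 6.64, 6.93 and 6.97 in sham. All MCAO+NRG1 arrays were under sham, while MCAO replicate 3 met sham replicate 2 at nearly the same value. The group means were 6.27 ± 0.14 in MCAO+NRG1, 6.23 ± 0.36 in MCAO and 6.93 ± 0.22 in sham (SD, n = 3, 3 and 4). Klf15 stood at −0.69 ± 0.19 log2 in MCAO against sham (a ratio of 0.618, adjusted p = 0.0394 in limma) and at −0.66 ± 0.19 in MCAO+NRG1 against sham (adjusted p = 0.0271 in limma). The difference of MCAO+NRG1 from MCAO was 0.034 log2, with a 95% interval of −0.39 to 0.45.

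The falls of Klf15 and Klf16 depended on the scale and on single arrays. After median centring they were −0.54 and −0.58 log2 in MCAO against sham (adjusted p = 0.0665 and 0.0628 in limma) and −0.40 and −0.46 in MCAO+NRG1 against sham (adjusted p = 0.123 and 0.102 in limma), all with the same sign and none called. After quantile normalization both were still called in MCAO against sham, at −0.60 and −0.68 (adjusted p = 0.0374 and 0.0367 in limma), and neither in MCAO+NRG1 against sham, at −0.48 and −0.57 (adjusted p = 0.0635 and 0.0517 in limma). Between MCAO and sham, neither gene was called without MCAO replicate 1 or 2 or without sham replicate 2, 3 or 4, and Klf15 not without MCAO+NRG1 replicate 1 or 3. The adjusted p in limma with 1 array left out ran from 0.0083 to 0.146 for Klf15 and from 0.00833 to 0.136 for Klf16. Both were lowest without MCAO replicate 3, the array with the high median. Between MCAO+NRG1 and sham, Klf15 was not called without MCAO+NRG1 replicate 1 or 3 or sham replicate 3 or 4, nor Klf16 without MCAO+NRG1 replicate 1 or sham replicate 2 or 4, and the highest adjusted p in limma was 0.103 and 0.0935.

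The promoter of Klf15 is shown because the gene fell in both comparisons with sham and because it holds 1 CACCC box. No GC box GGGCGG was found in it (30.5% of promoters hold one). It spans chr4:124522765-124523014 on the plus strand of GRCr8, the 250 bases before the start in RefSeq, and 77.2% of these are G or C. The capitals mark GGGTG, the CACCC box read on its other strand.
Klf15: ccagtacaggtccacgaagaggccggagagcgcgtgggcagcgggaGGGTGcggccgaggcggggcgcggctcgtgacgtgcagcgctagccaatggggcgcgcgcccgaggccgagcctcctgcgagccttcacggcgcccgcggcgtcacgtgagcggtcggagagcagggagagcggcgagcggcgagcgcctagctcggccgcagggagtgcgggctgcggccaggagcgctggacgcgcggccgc
That box starts at −204, counted from the gene's start, and 49.2% of 33469 rat promoters of the same length hold at least 1. The short cAMP response site TGACG was found at −176 and −104 (18.2% of promoters), CCAAT at −160 (34% of promoters), and the E-box CACGTG at −101 (5.59% of promoters), where it overlaps the nearer TGACG. Matches on either strand were counted, in letters alone.

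Klf6, which encodes an injury-response factor that supports axon growth in the zebrafish retina, was the one member that rose on the deposited scale. Its log2 signal was 7.82, 7.99 and 7.34 in MCAO+NRG1, 7.68, 7.50 and 7.70 in MCAO, and 7.26, 7.04, 6.29 and 7.38 in sham. The MCAO arrays all lay above sham, whereas MCAO+NRG1 replicate 3 fell just under sham replicate 4. Sham replicate 3 was the lowest of the 10 arrays, and the sham SD was 0.49 around a mean of 6.99, beside 7.72 ± 0.34 in MCAO+NRG1 and 7.62 ± 0.11 in MCAO. Klf6 rose by 0.72 ± 0.23 log2 in MCAO+NRG1 against sham (a ratio of 1.65, adjusted p = 0.0444 in limma), and by 0.99 ± 0.23 after median centring (adjusted p = 0.032 in limma). MCAO stood 0.63 ± 0.23 above sham without passing (adjusted p = 0.0933 in limma; 0.0734 after centring), and 0.40 above it without sham replicate 3. Without sham replicate 3 the difference of MCAO+NRG1 from sham was 0.49 log2 (adjusted p = 0.113 in limma), and the call was lost as well without MCAO replicate 1, sham replicate 2 or any 1 of the MCAO+NRG1 arrays. The gap between MCAO+NRG1 and MCAO was 0.091 log2, with a 95% interval of −0.43 to 0.62.

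Klf7, the closest relative of Klf6 and a promoter of axon growth in neurons, was high in both occluded groups on both scales. It measured 9.79, 9.60 and 9.81 log2 in MCAO+NRG1, 9.88, 9.90 and 9.73 in MCAO, and 9.65, 9.50, 9.24 and 9.14 in sham. The MCAO arrays lay above all sham arrays, and MCAO+NRG1 replicate 2 lay under sham replicate 1. The difference from sham was 0.35 ± 0.16 log2 in MCAO+NRG1 (adjusted p = 0.129 in limma) and 0.45 ± 0.16 in MCAO (adjusted p = 0.0845 in limma), where it was called without MCAO replicate 3 or sham replicate 1. After median centring Klf7 passed in MCAO+NRG1 against sham, at 0.62 ± 0.16 (adjusted p = 0.0454 in limma), with no overlap between the groups, and it missed in MCAO against sham at 0.61 ± 0.16 (adjusted p = 0.0559 in limma).

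The promoters of Klf6 and Klf7 are shown because these relatives were the 2 members that lay above every sham array after MCAO. They are the 250 bases before each start in RefSeq on the minus strand of GRCr8, at chr17:69458479-69458728 for Klf6 (67.2% G or C) and chr9:73020057-73020306 for Klf7 (59.6%). Capitals mark the CArG box of the serum response factor and the GC box in Klf6, and the GC box and the CACCC boxes, read as GGGTG, in Klf7.
Klf6: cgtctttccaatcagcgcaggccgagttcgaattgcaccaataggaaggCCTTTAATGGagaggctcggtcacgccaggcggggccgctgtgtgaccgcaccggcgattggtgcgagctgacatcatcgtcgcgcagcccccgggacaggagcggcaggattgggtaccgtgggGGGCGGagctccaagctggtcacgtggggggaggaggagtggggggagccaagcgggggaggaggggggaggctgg
Klf7: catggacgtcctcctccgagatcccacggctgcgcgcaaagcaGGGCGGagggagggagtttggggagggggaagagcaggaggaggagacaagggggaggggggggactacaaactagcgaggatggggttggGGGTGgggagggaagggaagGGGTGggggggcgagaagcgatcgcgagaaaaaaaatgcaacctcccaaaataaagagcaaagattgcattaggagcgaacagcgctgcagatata
The CArG box of Klf6 starts at −201, and 1.5% of the 33469 promoters hold one. The GC box GGGCGG lies at −76 in Klf6 and at −207 in Klf7 (30.5% of promoters), and CACCC boxes at −116 and −96 in Klf7. CCAAT was found 4 times in Klf6 and not in Klf7, and an E-box CACGTG at −56 in Klf6. The full cAMP site TGACGTCA (1.59% of promoters) and the MEF2 site (0.523%) had no match in the windows of Klf6, Klf7 or Klf15. RefSeq windows were matched for 6 of the 10 genes, the other 3 being Klf4, Klf5 and Klf11. Klf2, Klf10, Klf13 and Klf16 were not among them.

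**Figure D2:**
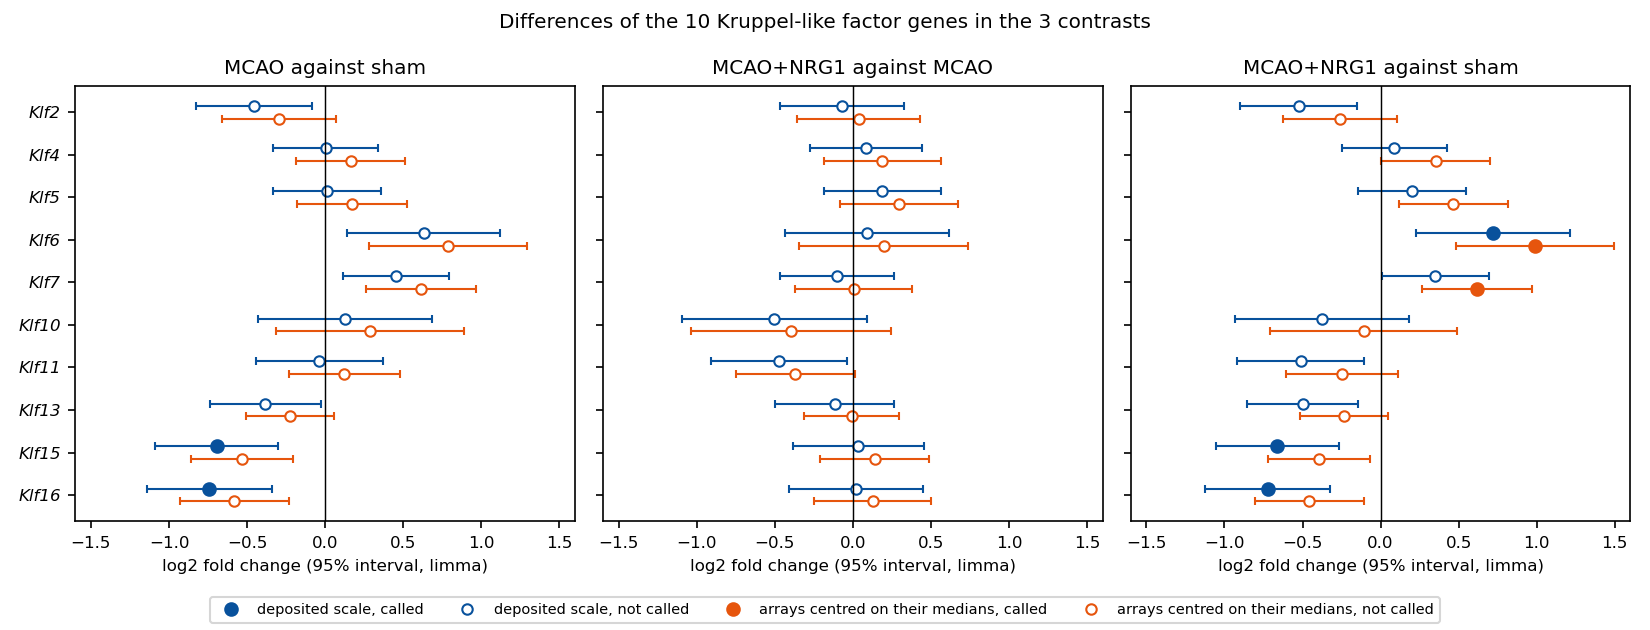
Log2 fold changes of the 10 Kruppel-like factor genes with 95% intervals (horizontal axis) in each comparison, on the deposited scale and after median centring, with called values filled. Klf15 and Klf16 lie left of 0 in both comparisons with sham on either scale, Klf6 and Klf7 right of it, and no gene is filled between MCAO+NRG1 and MCAO.

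Klf2, which keeps endothelium quiescent under blood flow, was lower than sham in both occluded groups without passing. Its log2 signal was 6.25, 6.43 and 6.35 in MCAO+NRG1, 6.61, 6.07 and 6.56 in MCAO, and 6.62, 6.80, 7.17 and 6.90 in sham. No occluded array reached the sham range, although MCAO replicate 1 and sham replicate 1 were nearly equal. Klf2 stood at −0.53 ± 0.18 log2 in MCAO+NRG1 against sham (adjusted p = 0.0505 in limma) and at −0.46 ± 0.18 in MCAO against sham (adjusted p = 0.106 in limma). After median centring these were −0.26 and −0.30, and the groups overlapped. Against sham, Klf2 was called in MCAO+NRG1 without sham replicate 1 or any 1 MCAO array, and in MCAO without sham replicate 1 (adjusted p = 0.0479 in limma), while without MCAO replicate 2 it stood at −0.28 in MCAO. Endothelial markers moved with it: the mean of the 10 measured markers was 5.65 to 6.41 log2 in the MCAO+NRG1 arrays, 6.03 to 6.57 in MCAO and 6.81 to 7.07 in sham. Of all probe sets 15.8% were called lower in MCAO+NRG1 and 5.61% in MCAO against sham (1.56% and 1.06% after centring). Of the endothelial markers 8 were called lower in MCAO+NRG1 and 3 in MCAO against sham (2 and 1 after centring), and of 6 meningeal fibroblast markers 4 and 4 (4 and 1 after centring). Of 5 mural cell markers 3 and 1 were called lower (none after centring), and of 7 microglia and macrophage markers none. Choroid plexus markers averaged 4.21 to 4.34 log2 in the MCAO+NRG1 arrays, 4.26 to 4.50 in MCAO and 4.87 to 7.43 in sham, with 3 of 5 called lower in MCAO+NRG1 and none in MCAO (none in either after centring), among them Ttr at −2.93 in MCAO+NRG1. The red cell marker Hba-a1 was called lower in MCAO+NRG1, at −0.88, and not after centring. In MCAO against sham Hba-a1 stood at −0.68 without passing. The part of these cells in the Klf values was not tested. In whole cortex, fewer cells of a type and less RNA per cell cannot be told apart.

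Klf4 and Klf5, regulators of growth and differentiation in vessel walls and epithelia, stayed near sham on the deposited scale. Klf4 measured 6.61, 6.15 and 6.22 log2 in MCAO+NRG1, 6.39, 6.17 and 6.18 in MCAO, and 6.16, 6.32, 6.35 and 6.13 in sham. Klf5 measured 8.06, 7.88 and 7.89 in MCAO+NRG1, 7.96, 7.50 and 7.80 in MCAO, and 7.47, 7.78, 7.92 and 7.79 in sham. The groups of both genes overlapped in every comparison, with differences from sham of 0.087 ± 0.16 for Klf4 and 0.20 ± 0.16 for Klf5 in MCAO+NRG1. In MCAO they were 0.0033 for Klf4 (95% interval −0.33 to 0.34) and 0.012 for Klf5 (95% interval −0.34 to 0.36). After median centring the MCAO+NRG1 arrays of both lay above all sham arrays, at 0.35 ± 0.16 for Klf4 and 0.47 ± 0.16 for Klf5 (adjusted p = 0.19 and 0.0984 in limma).

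Klf10 and Klf11, the TGF-beta-inducible repressors that recruit the SIN3A corepressor, had the widest gaps between MCAO+NRG1 and MCAO on the deposited scale. Klf10 measured 6.51, 6.72 and 7.01 log2 in MCAO+NRG1, 6.73, 7.84 and 7.18 in MCAO, and 6.88, 7.09, 7.78 and 6.74 in sham. A single array stood high in MCAO (replicate 2) and in sham (replicate 3), and the groups overlapped. Klf11 measured 5.39, 5.25 and 5.83 in MCAO+NRG1, 5.86, 5.63 and 6.41 in MCAO, and 5.96, 5.92, 6.06 and 6.08 in sham. All MCAO+NRG1 arrays were under sham, and MCAO+NRG1 replicate 3 overlapped MCAO. The difference of MCAO+NRG1 from MCAO was −0.50 ± 0.28 log2 for Klf10 (95% interval −1.10 to 0.090) and −0.48 ± 0.21 for Klf11 (95% interval −0.91 to −0.039), both with an adjusted p of 0.999 in limma. Leaving out 1 array moved Klf10 to −0.21 without MCAO replicate 2 and to −0.76 without MCAO replicate 1, and Klf11 to −0.26 without MCAO replicate 3. Klf11 stood at −0.51 ± 0.19 in MCAO+NRG1 against sham (adjusted p = 0.0731 in limma; 0.0284 without MCAO replicate 3), and at −0.25 after centring. In MCAO against sham it was −0.037 on the deposited scale and 0.12 after centring.

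Klf13, a repressor related to Klf16 that is also known as an activator of the chemokine gene Ccl5 in T cells, lay under sham in most occluded arrays. It measured 7.63, 7.61 and 7.37 log2 in MCAO+NRG1, 7.53, 7.39 and 8.03 in MCAO, and 8.10, 7.98, 8.02 and 8.05 in sham. Sham was tight, and of the occluded arrays MCAO replicate 3 alone reached it. The difference from sham was −0.50 ± 0.17 log2 in MCAO+NRG1 (adjusted p = 0.0514 in limma) and −0.38 ± 0.17 in MCAO (adjusted p = 0.146 in limma). Without MCAO replicate 3 it was called in both groups (adjusted p = 0.0141 and 0.0183 in limma), and without MCAO replicate 2 it was called in MCAO+NRG1 and stood at −0.25 in MCAO. Centring brought these to −0.23 and −0.22 and left no overlap with sham in either group. MCAO replicate 3 and sham replicate 2 were then nearly equal, at 7.855 and 7.856 log2.

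**Figure D3:**
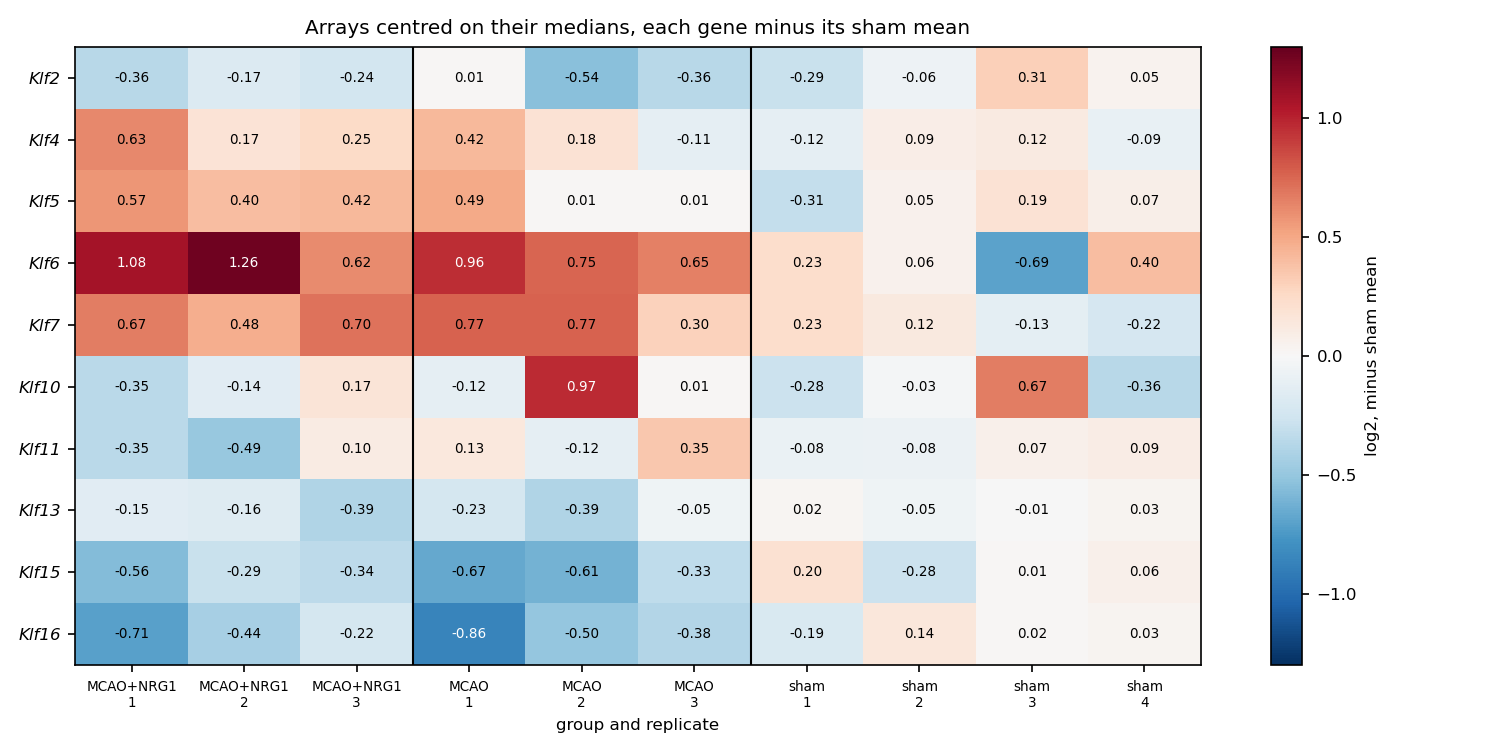
Median-centred log2 signal minus the sham mean for the 10 Kruppel-like factor genes (rows) in each array (columns, MCAO+NRG1, MCAO and sham by replicate), red for higher and blue for lower. Klf6 and Klf7 are above the sham mean and Klf13, Klf15 and Klf16 below it in all 6 occluded arrays; sham replicate 3 is at −0.69 for Klf6 and 0.67 for Klf10.

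Groups that did not overlap were found for 4 of the 10 genes in MCAO against sham (Klf6 and Klf7 above, Klf2 and Klf16 below), where 20.6% of all probe sets had none (2.74% above, 17.8% below). Centring made them 5: Klf6 and Klf7 above and Klf13, Klf15 and Klf16 below, against 18.8% of all probe sets (10.6% above, 8.2% below). In MCAO+NRG1 against sham, Klf2, Klf11, Klf13, Klf15 and Klf16 lay below sham, where 36.4% of all probe sets did not overlap (2.17% above, 34.2% below). After centring 7 genes did not overlap, Klf4, Klf5, Klf6 and Klf7 above and Klf13, Klf15 and Klf16 below, against 22.2% of all probe sets (13% above, 9.22% below). MCAO+NRG1 and MCAO overlapped for all 10 genes on both scales, against 5.74% of all probe sets apart on the deposited scale and 6.75% after centring.

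As a set, the 10 genes ran in both directions. Their median difference was −0.44 log2 in MCAO+NRG1 against sham, beside −0.24 over all probe sets, and −0.017 in MCAO against sham, beside −0.16 over all. In MCAO+NRG1 against MCAO it was −0.025, beside −0.079 over all. After median centring these medians were −0.17 (0.027 over all probe sets), 0.14 (−0.0050 over all) and 0.081 (0.027 over all) in the same order. At an unadjusted p under 0.05, 2 members were higher and 5 lower in MCAO+NRG1 against sham (3.88% and 32.1% of all probe sets), and 2 higher and 4 lower in MCAO against sham (5.48% and 23.6%). Centring turned the balance to 4 higher and 2 lower in MCAO+NRG1 against sham (16% and 9.8% of all probe sets), and to 2 higher and 2 lower in MCAO against sham (14.1% and 10.9%). Between MCAO+NRG1 and MCAO, Klf11 alone was past that level, 1 of 10 against 3.21% of all, and no member was after centring (3.11% of all). The F test over the 3 groups in limma passed Klf15 (adjusted p = 0.0295) and Klf16 (adjusted p = 0.0237), 2 of 10 against 11.5% of all probe sets. After centring it passed Klf6 alone (adjusted p = 0.0485 in limma), against 4.05% of all.

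The genes most like each called member were sought among 12624 probe sets above background, by the root mean square difference of profiles over the 10 arrays after centring. For Klf16 these were Caskin1 (0.0833 log2), Mroh1 (0.085) and Git1 (0.0864), where the median over all was 0.377. For Klf15 they were Hdhd5 (0.0971 log2), Rgp1 (0.115) and Myorg (0.117), where the median was 0.358. For Klf6, Mak16 (0.228 log2), Flrt3 (0.233) and Ddit3 (0.235) came closest, where the median was 0.564. Klf6 itself varied more, by a root mean square of 0.540 log2 around its own mean, beside 0.279 for Klf15 and 0.312 for Klf16. The differences were not scaled to that spread. These likenesses rest on 10 arrays that share their group structure.

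Of 6 other Klf genes measured, none was called in MCAO against sham. In MCAO+NRG1 against sham Klf1 and Klf14 were called lower, both under the background level and neither called after centring. There 15.8% of all probe sets were called lower. In MCAO against sham Klf1 and Klf14 stood at −0.52 and −0.31 log2. Klf17, also under the background level, stood at −0.55 in MCAO against sham (adjusted p = 0.0527 in limma) and at −0.16 in MCAO+NRG1 against sham. Its difference of MCAO+NRG1 from MCAO was 0.39 (adjusted p = 0.999 in limma). Klf9, a hormone-responsive neuronal member, averaged 10.1 ± 0.074 log2 in MCAO+NRG1, 10.3 ± 0.39 in MCAO and 10.2 ± 0.22 in sham (SD, n = 3, 3 and 4), and Klf3, a repressor that recruits CTBP, averaged 7.03 ± 0.11 in MCAO+NRG1, 7.09 ± 0.37 in MCAO and 7.52 ± 0.30 in sham.

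Among the 9 Sp genes, whose proteins bind the same GC boxes, Sp3 fell in both comparisons with sham and on both scales. It measured 7.14, 6.73 and 7.03 log2 in MCAO+NRG1, 6.99, 6.96 and 7.52 in MCAO, and 8.07, 7.95, 8.07 and 7.84 in sham. All occluded arrays lay under all sham arrays. The fall was −1.02 ± 0.17 log2 in MCAO+NRG1 (adjusted p = 0.00356 in limma) and −0.83 ± 0.17 in MCAO (adjusted p = 0.0189 in limma). Sp2 and Sp8 were called lower in MCAO+NRG1 alone, at −0.70 and −0.74, and not after centring. In MCAO against sham Sp2 and Sp8 stood at −0.58 and −0.48 without passing. Of the 9 genes 3 were called lower in MCAO+NRG1 and 1 in MCAO, against 15.8% and 5.61% of all probe sets.

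The ERK5 and MEF2 pathway drives Klf2 and Klf4 in endothelium, and its transcripts went both ways in whole cortex. Of 7 measured genes, Map3k2, a kinase at its head, rose by 0.70 ± 0.19 log2 in MCAO+NRG1 (adjusted p = 0.0225 in limma) and by 0.89 ± 0.19 in MCAO against sham (adjusted p = 0.0189 in limma), also after centring. Mef2d, a transcription factor at its end, was called lower at −0.80 ± 0.18 in MCAO+NRG1 and −0.68 ± 0.18 in MCAO, and Mapk7, which encodes ERK5 itself, at −0.64 ± 0.15 in MCAO+NRG1. Mef2b was called lower in MCAO+NRG1 and was near background. In MCAO against sham Mapk7 and Mef2b stood at −0.28 and −0.67 without passing (adjusted p = 0.224 and 0.0502 in limma). No call on Mef2d, Mapk7 or Mef2b was kept after centring. In MCAO+NRG1 against sham 1 of the 7 genes was called higher and 3 lower, against 1.51% and 15.8% of all probe sets. In MCAO against sham 1 was called higher and 1 lower, against 1.1% and 5.61%. The activity of the pathway was not measured.

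Of the 4 vessel genes that KLF2 or KLF4 raise in endothelium, none was called in MCAO against sham. In MCAO+NRG1 against sham 3 were called lower, where 15.8% of all probe sets were. These were Tek, the angiopoietin receptor (−0.87 ± 0.27 log2), Nos3, the endothelial nitric oxide synthase (−0.66 ± 0.17), and Nppc, a natriuretic peptide gene (−0.50 ± 0.15). In MCAO against sham Tek, Nos3 and Nppc stood at −0.57, −0.54 and −0.39 without passing, where 5.61% of all probe sets were called lower. None of the 3 was called after centring, and endothelial markers moved with them as given for Klf2. Of 5 measured genes that KLF2 or KLF4 lower, the chemokine gene Ccl2 was called higher in both comparisons with sham. Of all probe sets 1.51% were called higher in MCAO+NRG1 and 1.1% in MCAO. The sham mean of Ccl2, 4.56 log2, was under background, and its MCAO arrays spread over 6.38, 8.18 and 5.33. Sele, an adhesion gene under background, was called lower in MCAO+NRG1, where 15.8% of all probe sets were.

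Of the 7 metabolic and corticoid genes linked to KLF15, none was called in MCAO against sham. In MCAO+NRG1 against sham 3 were called lower, where 15.8% of all probe sets were. These were Fkbp5, a glucocorticoid-induced cochaperone (−0.65 ± 0.18 log2), Bcat2, which breaks down branched-chain amino acids (−0.59 ± 0.19), and Slc2a4, the insulin-sensitive glucose transporter (−0.56 ± 0.18). In MCAO against sham Fkbp5, Bcat2 and Slc2a4 stood at −0.43, −0.39 and −0.54 without passing. The uncalled genes in MCAO+NRG1 against sham went both ways: Prodh −0.36, Sgk1 0.0081, Per1 0.18 and Tsc22d3 0.21. After centring no gene of this list was called. Of 8 genes of the cell cycle, TGF-beta and neurite list none was called in any comparison, and of 9 cofactors 1 was called, the acetyltransferase gene Crebbp, lower in MCAO+NRG1 against sham at −0.55 ± 0.16 and not after centring. In MCAO against sham Crebbp stood at −0.30 without passing. No gene of any of these lists was called between MCAO+NRG1 and MCAO.

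**Figure D4:**
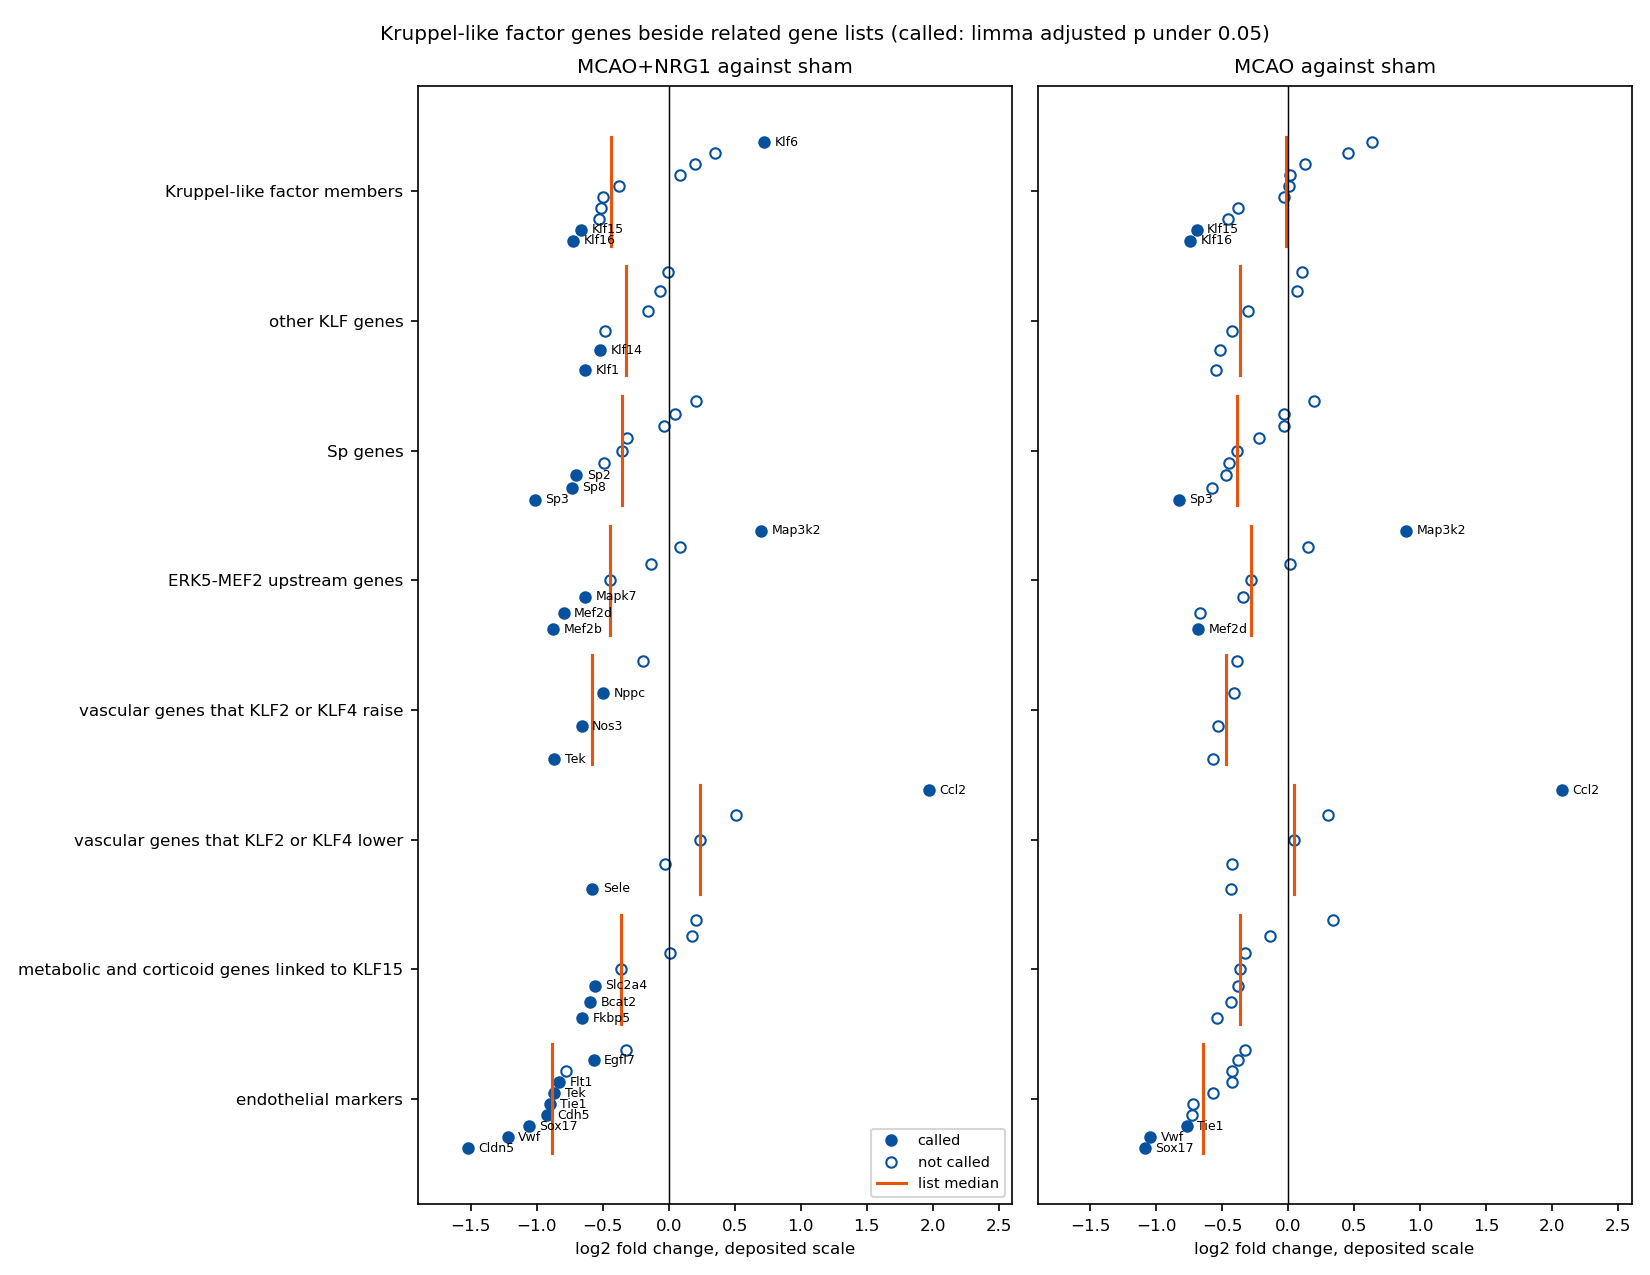
Log2 fold changes on the deposited scale (horizontal axis) of the 10 Kruppel-like factor genes and of related lists, for MCAO+NRG1 against sham and MCAO against sham, 1 point per gene, filled and named where called, with the list median as a bar. Called genes lie mostly left of 0; Klf6, Map3k2 and Ccl2 are the exceptions in MCAO+NRG1, and Map3k2 and Ccl2 in MCAO.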

How the data were processed

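The table analysed holds log2 values for 36685 probe sets on 10 Affymetrix Rat Gene 2.0 ST arrays; per the labels and the study's methods, the authors made these log2 values with RMA in the oligo package, whose version is not given in the sources used here. Whether all arrays were normalized together is not stated. No further background correction or scaling was applied for the values called the deposited scale. Groups and replicate numbers were taken from the sample titles.

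Gene names came from the platform annotation, which can be old, updated through Entrez identifiers in a RefSeq table of GRCr8. A single symbol was found for 18511 probe sets (18394 matched to that table), while 575 had more than 1 and 17599 had no symbol. Those with a single symbol entered 1 fit in limma 3.58.1 under R 4.3.3 on 3 group means, with 3 contrasts and a moderated F test, tried beforehand on simulated data. P-values were adjusted over all 18511. Precision is limited by the number of arrays.

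All 10 members are named. Of the related lists, called genes and some uncalled ones, not always those of smallest p, are named, and for each called member the 3 genes of most similar profile. Members and lists were chosen with earlier results of these data known. Promoters are RefSeq windows of GRCr8, searched on both strands for the CACCC box, the GC box GGGCGG, the short cAMP site TGACG and the full one TGACGTCA, which contains it, the box CCAAT, the TATA box TATAAA, the E-box CACGTG, and the CArG and MEF2 sites; 51.2% of bases were G or C in the median promoter.  Alternatives were median centring, quantile normalization, a filter on dim signals, a test of the whole array, 1 probe set for each gene, eBayes with trend and robust, array weights, a replicate block, fits limited to the groups compared, and omission of each array. Median centring with each array left out was added after seeing the data.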

Additional observations from a re-analysis of the deposited data

How the results depend on the processing

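The calls rested on few arrays and on the scale. Of the 10 genes, 2 were called in MCAO against sham, 3 in MCAO+NRG1 against sham, 2 by the F test and 0 in MCAO+NRG1 against MCAO, in limma. The last count was 0 under every alternative run, with 1 gene at an unadjusted p under 0.05 on the deposited scale and 0 after centring. For MCAO against sham the count was 0 under median centring (3.26% of all probe sets called), with all probe sets tested (0.837%) or in a fit of only those groups (2.75%), and 5 with array weights (38.5%). For MCAO+NRG1 against sham it was 1 after quantile normalization (5.62%), 5 without dim probe sets (19.4%) or in a fit of only those groups (25.1%), 0 with all probe sets (6.06%) and 7 with array weights (42.2%). For the F test it was 1 after median centring (4.05%), 0 with all probe sets (2.48%) and 7 with array weights (43.6%). With 1 array left out the count ran from 0 to 4, from 0 to 6 and from 0 to 5 in that order, and after median centring, a combination chosen after seeing the data, from 0 to 3 in each. The cause was not tested.

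With the replicate number as a block the counts were 0 for MCAO against sham (1.25% of all probe sets called), 2 for MCAO+NRG1 against sham (7.74%) and 0 for the F test (2.69%). The sample titles do not say whether same-numbered arrays share more than their number. Deviations of same-numbered arrays from their group means had r between −0.19 and 0.22 over 9 pairs, and 4 of 9 arrays were closest to their own number. These values cannot decide whether a pairing exists, since the group means rest on few arrays.

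Some signs turned. In MCAO against sham, Klf4 was −0.038 with array weights and −0.034 with the replicate block, Klf5 −0.15 with array weights, and Klf11 0.12 after median centring and after quantile normalization. In MCAO+NRG1 against MCAO, Klf2 was 0.036 after median centring, 0.022 after quantile normalization and 0.088 with array weights, Klf7 0.00405 after median centring and Klf13 0.053 with array weights. With 1 array left out, signs turned in MCAO against sham for Klf4 (−0.068 to 0.039), Klf5 (−0.091 to 0.14), Klf10 (−0.16 to 0.39) and Klf11 (−0.26 to 0.13), in MCAO+NRG1 against sham for Klf4 (−0.055 to 0.17), and in MCAO+NRG1 against MCAO for Klf2 (−0.24 to 0.029), Klf4 (−0.059 to 0.17), Klf6 (−0.047 to 0.28), Klf13 (−0.24 to 0.074), Klf15 (−0.090 to 0.24) and Klf16 (−0.18 to 0.22). Klf2, Klf13, Klf15 and Klf16 kept a negative and Klf6 and Klf7 a positive difference from sham in both occluded groups under all alternatives.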
